A study of Mus musculus with 24 samples.

Results

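The libraries described here are bulk RNA-seq libraries of cortex from mice labelled Abca7, 12 of the 24 libraries in the study, with 6 from mice given lipopolysaccharide (LPS) and 6 from mice given no stimulus. Members were chosen by the genotype and stimulus labels, and every gene with at least 10 raw counts in at least 6 of these 12 libraries was analysed, which gave 21133 of the 43346 genes in the table. The design text describes the mice labelled Abca7 as heterozygous for Abca7, the unstimulated and the LPS animals alike, and names control mice as the other genotype. Unstimulated animals were 55 to 58 days old and LPS animals 54 to 56 days old. The dose, route and time of LPS, the strain, and the kind of allele were not given in the sources used here. Total RNA was extracted with TRIzol, treated with DNase and cleaned on RNeasy columns. Each title carries its own number, and each library was taken as 1 animal.

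The labels were first set against the transcript of the targeted gene. Abca7, which encodes a lipid transporter of the ABC family linked to Alzheimer's disease risk, gave 27.9 to 35.9 CPM of the raw library total (counts scaled to equal depth) in the 6 unstimulated libraries labelled Abca7 and 24.5 to 32.7 in the 6 unstimulated control libraries. With LPS these ranges were 26.0 to 31.8 and 18.9 to 27.3. The median was 32.2 against 28.3 without LPS and 29.9 against 26.4 with it, so the transcript was not lower in the libraries labelled Abca7, and the genotype stands below as a label. Within the libraries labelled Abca7 the gene ranged from 30.0 to 34.9 CPM (median 31.4) without LPS and 25.3 to 31.6 CPM (median 30.0) with LPS. These are CPM scaled by the trimmed mean of M values, the unit of all CPM values below except summed markers, which use the raw library total. The ranges overlapped and the gene did not pass the test (log2 fold change -0.13, SE 0.06, adjusted p = 0.172, edgeR's quasi-likelihood test with Benjamini-Hochberg adjustment, which gives every adjusted p below).

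LPS, a glycolipid, makes up much of the outer surface of Gram-negative bacteria. It is bound by CD14 and sensed by the TLR4 complex, which signals through MyD88 to NF-kB and through TRIF to interferon regulatory factors. NF-kB is held in the cytoplasm by inhibitor proteins such as IkB-alpha, and its targets include cytokines, chemokines, adhesion molecules and its own inhibitors. Type I interferon signals through JAK kinases and STAT proteins to interferon-stimulated response elements (ISRE) in promoters of antiviral genes. In the brain, endothelial cells, perivascular macrophages, microglia and astrocytes are known to respond to LPS in the blood, and reactive microglia lower the genes that mark their resting state.

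Promoter windows of 5 genes are shown because their letters carry the motif groups by which LPS replicate 4 is described further on. Each window runs from 250 bases before to 50 bases after the transcription start in RefSeq (GRCm38.p6), 5′ to 3′ on the strand of the gene, and the capitals mark matches to the NF-kB consensus or to the ISRE letters (GAAA, then any 2 bases, then GAAA again), each searched on both strands and with overlapping matches kept. Cxcl10 (chr5:92348840-92349139, minus strand), a chemokine, held 3 NF-kB matches, a pair of them overlapping, and 1 ISRE match. Nfkbia (chr12:55492598-55492897, minus strand), which encodes IkB-alpha, held 1 NF-kB match. Cxcl1 (chr5:90890995-90891294, plus strand), a neutrophil chemokine, held 2 overlapping NF-kB matches. Gbp5 (chr3:142496684-142496983, plus strand), a guanylate-binding protein, held 1 match of each kind. Ifit1 (chr19:34640639-34640938, plus strand), an antiviral protein, held 2 ISRE matches.
Cxcl10: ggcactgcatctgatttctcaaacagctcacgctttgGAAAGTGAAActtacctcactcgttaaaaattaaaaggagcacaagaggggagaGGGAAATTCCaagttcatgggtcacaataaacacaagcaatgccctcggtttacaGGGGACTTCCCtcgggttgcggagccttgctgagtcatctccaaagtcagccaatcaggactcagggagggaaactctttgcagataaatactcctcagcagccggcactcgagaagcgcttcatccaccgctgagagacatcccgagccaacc
Nfkbia: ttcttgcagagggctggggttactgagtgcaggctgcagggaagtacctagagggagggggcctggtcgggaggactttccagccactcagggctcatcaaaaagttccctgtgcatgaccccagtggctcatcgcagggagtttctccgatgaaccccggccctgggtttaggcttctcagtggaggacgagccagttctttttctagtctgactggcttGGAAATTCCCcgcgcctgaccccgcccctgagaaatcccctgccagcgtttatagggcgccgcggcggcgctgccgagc
Cxcl1: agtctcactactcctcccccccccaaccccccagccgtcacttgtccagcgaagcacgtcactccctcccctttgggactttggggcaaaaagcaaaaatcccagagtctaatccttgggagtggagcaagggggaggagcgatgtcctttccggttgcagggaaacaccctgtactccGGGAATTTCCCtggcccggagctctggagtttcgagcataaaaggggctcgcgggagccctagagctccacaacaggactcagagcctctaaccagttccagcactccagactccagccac
Gbp5: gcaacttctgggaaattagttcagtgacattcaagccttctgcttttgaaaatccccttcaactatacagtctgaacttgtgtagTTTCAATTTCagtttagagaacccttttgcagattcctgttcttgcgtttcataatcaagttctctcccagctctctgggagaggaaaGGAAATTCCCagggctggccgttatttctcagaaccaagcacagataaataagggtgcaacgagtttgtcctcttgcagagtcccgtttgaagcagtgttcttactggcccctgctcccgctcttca
Ifit1: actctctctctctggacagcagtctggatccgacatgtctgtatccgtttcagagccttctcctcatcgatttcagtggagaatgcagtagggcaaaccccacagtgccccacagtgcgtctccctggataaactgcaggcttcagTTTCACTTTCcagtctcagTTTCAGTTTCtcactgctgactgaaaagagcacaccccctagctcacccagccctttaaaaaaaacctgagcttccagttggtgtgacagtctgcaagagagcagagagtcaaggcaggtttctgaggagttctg

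Among all 32851 RefSeq promoter windows of this length, 8.46% held the NF-kB consensus and 3.44% the ISRE letters. Among windows of the genes tested the shares were 10.4% and 3.02%. Genes called higher with LPS by over 2-fold had 360 windows, of which 21.1% held the NF-kB consensus and 17.5% the ISRE letters. Genes called lower by over 2-fold had 85 windows, of which 12.9% and 1.18% did. Among lists, the ISRE letters stood in 15 of 26 windows of antiviral interferon-stimulated genes (57.7%) and in 9 of 10 windows of interferon-inducible GTPases, while the NF-kB consensus stood in 10 of 23 windows of NF-kB subunits and inhibitors (43.5%) and in 8 of 18 windows of MHC class I genes (44.4%). The NF-kB share did not follow the direction of change in every list. It was 7 of 18 windows (38.9%) in immediate early genes, which mostly fell. It was 3 of 17 windows (17.6%) in cytokines and 0 of 13 in endothelial activation genes, which mostly rose. These matches describe the letters in the window and were not tested.

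**Figure D1:**
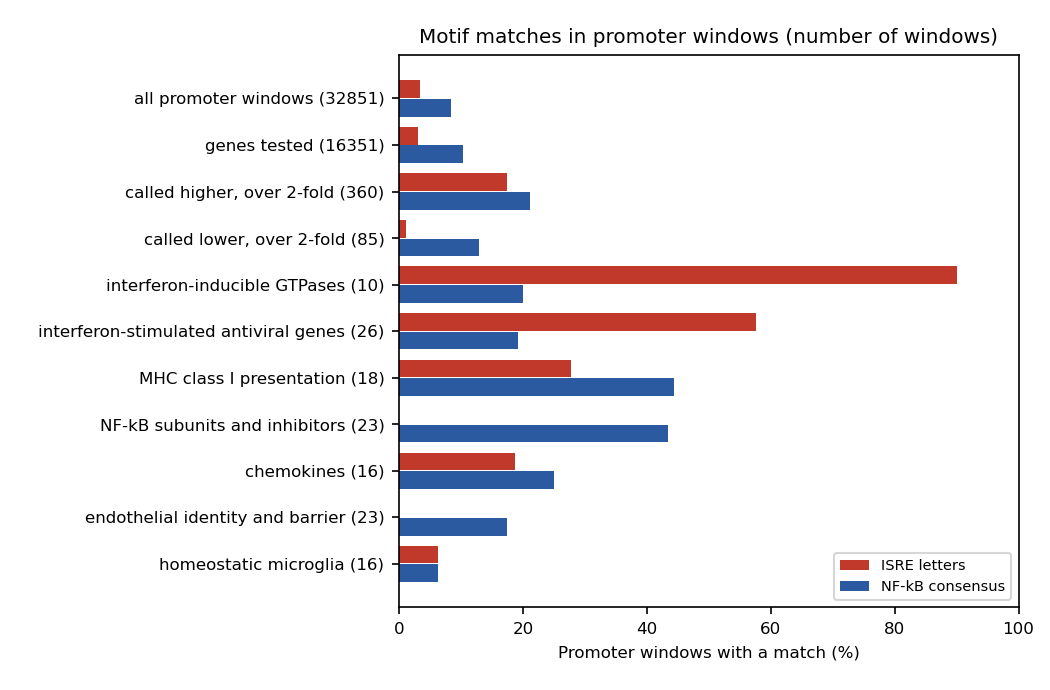
Share of RefSeq promoter windows (%, x axis) that held the NF-kB consensus or the ISRE letters, with the number of windows in parentheses. The rows are all windows, the genes tested, genes called by over 2-fold and some of the gene lists. The ISRE bars reach 57.7% for antiviral genes and 90% for GTPases, against 3.44% for all windows.

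Totals ran from 48149131 to 61638125 counts without LPS and from 48151862 to 75741388 with LPS. On the first principal component, which held 46.1% of the variance, the unstimulated libraries lay between -38.1 and -30.5, and LPS replicate 4 lay at 12.4 while the other 5 LPS libraries lay between 29.1 and 42.5. Replicate 4 was singled out for its weak response, so its values are a description with no test, and calls and fold changes that move without it are given beside the results. The share of counts from the ribosomal repeat gene was 16.5% in LPS replicate 4 (7.17 to 11.96% in the other LPS libraries) and 18.7% in unstimulated replicate 1 (5.88 to 12.7% in the others). Ttr, the main choroid plexus transcript, gave 2083 counts in unstimulated replicate 1 and 1410 in LPS replicate 6, against 10670 to 29686 in the other 10 libraries. With the Ttr level in the fit 2531 genes were called, 2177 of them shared with the 2235 below. The part of the ribosomal share in the results was not tested.

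LPS changed 2235 genes, 10.6% of those tested, with 1225 higher (5.8%) and 1010 lower (4.78%). Changes above 2-fold were mostly increases, 437 against 115 decreases. In 1219 genes (5.77%) the 6 LPS and the 6 unstimulated libraries did not overlap, and 1150 of these were called. Without LPS replicate 4, 2454 genes were called (11.6%), 1321 higher and 1133 lower, of which 620 moved by over 2-fold. The sets shared 2067 genes, while 168 were called only with the replicate and 387 only without it. The median log2 fold change over all genes tested was 0.0014. Scaling by the trimmed mean of M values centres most genes near 0, so this median cannot show a shift shared by all genes. The fold changes below are relative to that centre.

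The 12 largest increases among well-measured genes (mean log2 CPM of at least 1, no overlap between the groups) were Cxcl10, Lcn2, Rsad2, Cxcl1, Mx1, Iigp1, Gbp5, Gbp2, Steap4, Ifit1, Gbp6 and Icam1, with log2 fold changes from 4.604 to 7.28. They hold chemokines, antiviral proteins, interferon-inducible GTPases, the iron-binding acute-phase protein lipocalin 2, a metalloreductase (Steap4) and an adhesion molecule (Icam1). The 12 largest decreases were Sox17, Hspa12b, Fmo2, Slco1a4, Cldn5, Egr2, Gpr34, Tek, Klf4, Edn3, Slc40a1 and Cx3cr1, from -2.71 to -1.45. Among them are endothelial genes (Sox17, Hspa12b, Slco1a4, Cldn5, Tek), microglial receptors (Gpr34, Cx3cr1) and the iron exporter ferroportin (Slc40a1). Slc40a1 ranged from 7.18 to 10.98 CPM (median 8.15) without LPS and 2.28 to 4.601 CPM (median 2.82) with LPS (log2 fold change -1.49, SE 0.15, adjusted p = 3.39e-06), and Fmo2, a flavin monooxygenase, from 3.05 to 7.45 CPM (median 4.76) without LPS and 0.586 to 2.07 CPM (median 1.44) with LPS (log2 fold change -1.88, SE 0.28, adjusted p = 1.85e-04). Edn3, which encodes endothelin 3, ranged from 4.82 to 8.87 CPM (median 6.03) without LPS and 1.30 to 3.40 CPM (median 2.33) with LPS (log2 fold change -1.495, SE 0.20, adjusted p = 6.08e-05).

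**Figure D2:**
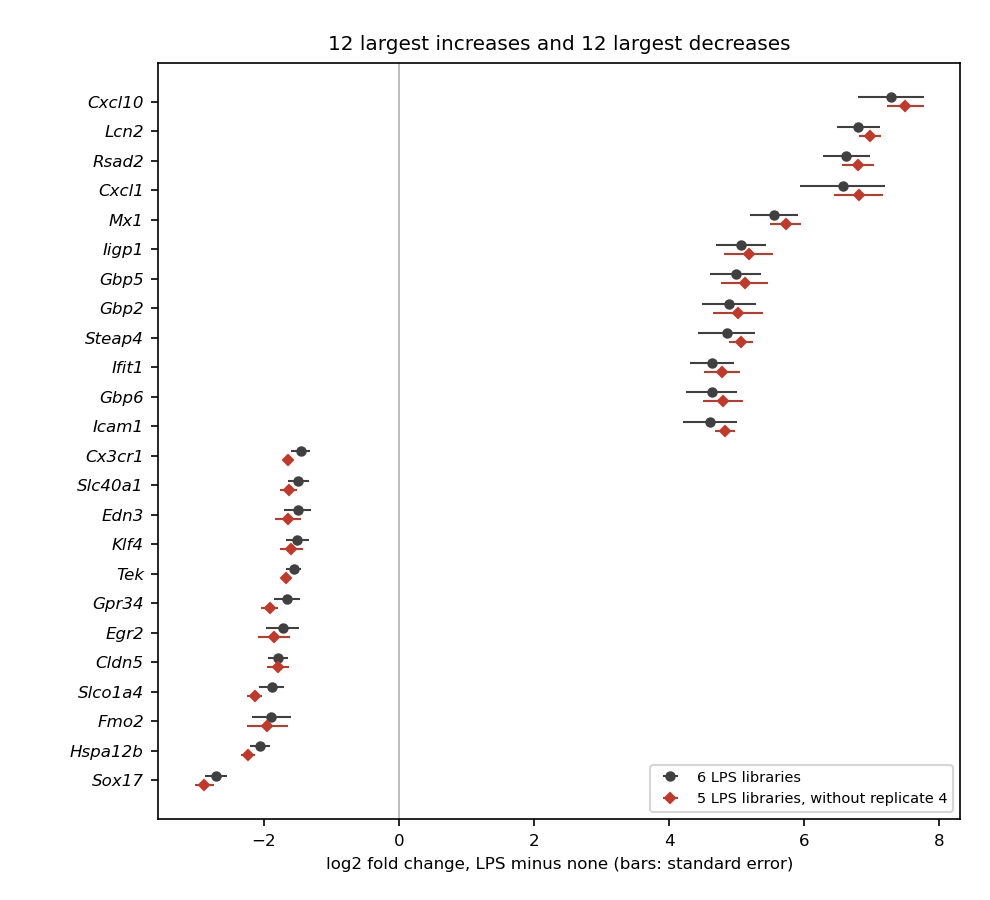
Log2 fold change (LPS minus none, x axis) with its standard error for the 12 largest increases and the 12 largest decreases, from 6 LPS libraries and from 5 without replicate 4. Every point without replicate 4 lies on the same side of 0 as with it, and Cxcl10 stands at 7.28 with it and 7.50 without it.

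**Figure D3:**
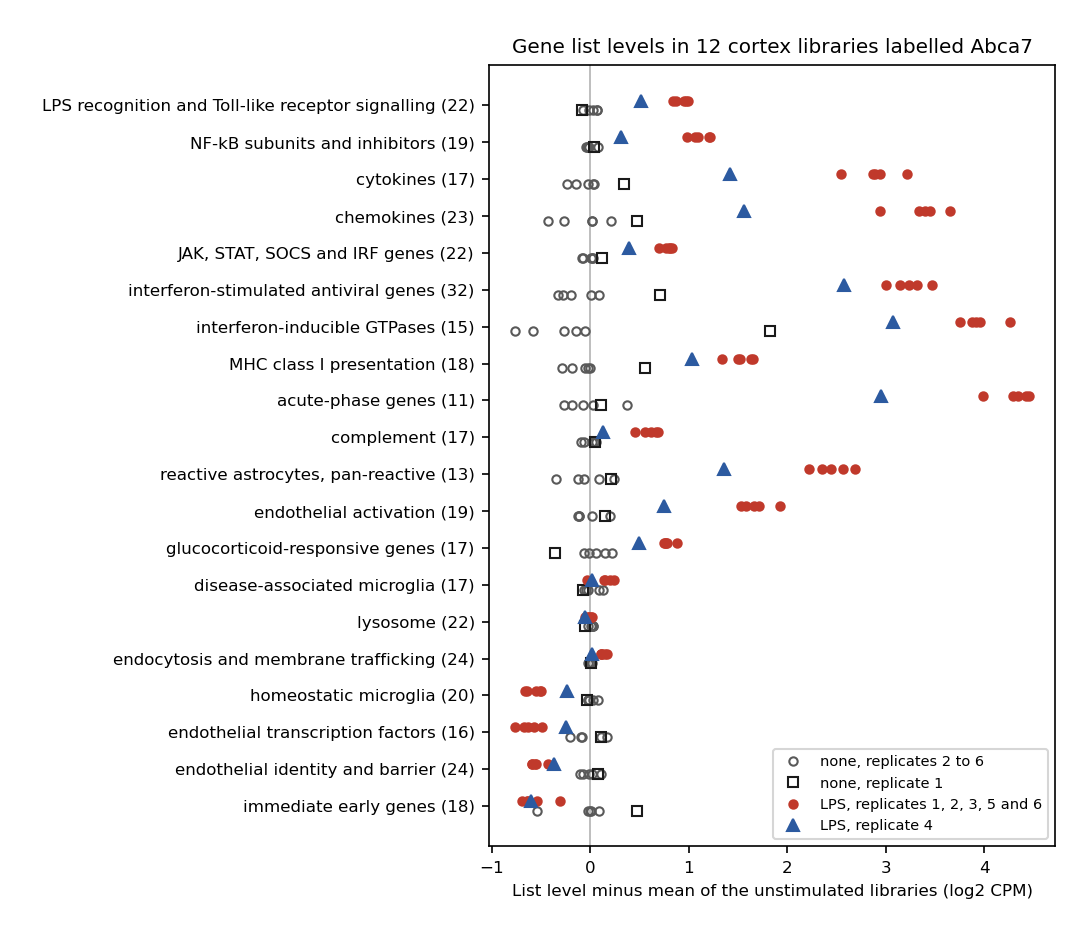
Mean log2 CPM of each gene list in each of the 12 libraries, as the difference from the mean of the 6 unstimulated libraries (x axis), with the number of genes in parentheses. LPS replicate 4 lies nearest the unstimulated libraries among the LPS libraries in cytokines, NF-kB genes and acute-phase genes, and unstimulated replicate 1 lies above the other unstimulated libraries in GTPases.

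Among 22 genes of LPS recognition and Toll-like receptor signalling, 10 rose and none fell, with a median log2 fold change of 0.53. The median of all genes tested was 0.0014, and 10.6% of all genes were called. Cd14, the receptor that hands LPS to TLR4, ranged from 1.13 to 1.58 CPM (median 1.49) without LPS and 5.66 to 27.7 CPM (median 20.7) with LPS. No LPS library overlapped the unstimulated ones, and replicate 4 was the lowest of them; Cd14 rose with log2 fold change 3.79, SE 0.29, adjusted p = 1.01e-07 and 3.98 without replicate 4. Tlr2, the receptor for bacterial lipoproteins, ranged from 0.416 to 1.06 CPM (median 0.671) without LPS and 2.58 to 21.5 CPM (median 16.2) with LPS and rose (log2 fold change 4.38, SE 0.41, adjusted p = 1.17e-06). The adaptor Myd88 (1.39 ± 0.13, SE), the inhibitory kinase Irak3 (2.13 ± 0.18), the kinase Map3k8 (2.15 ± 0.18) and the RNA sensor Tlr7 (0.58 ± 0.10) rose as well. Tlr4 itself ranged from 1.16 to 1.71 CPM (median 1.52) without LPS and 1.15 to 1.64 CPM (median 1.42) with LPS and did not pass (log2 fold change -0.06, SE 0.14, adjusted p = 0.860). Its values overlapped between the groups, whereas those of its coreceptor Cd14 and its adaptor Myd88 did not.

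Of 20 genes of NF-kB subunits and inhibitors, 19 passed the count minimum, 14 rose and 1 fell, with a median of 0.73. Nfkbia, whose promoter is shown above, ranged from 16.7 to 26.4 CPM (median 23.6) without LPS and 32.8 to 61.8 CPM (median 57.7) with LPS. All 6 LPS libraries lay above the unstimulated ones (log2 fold change 1.21, SE 0.13, adjusted p = 7.29e-06; 1.32 without replicate 4). Tnfaip3, which encodes the ubiquitin-editing inhibitor A20, ranged from 4.61 to 6.81 CPM (median 5.89) without LPS and 6.71 to 44.8 CPM (median 29.8) with LPS. Its lowest LPS value, in replicate 4, lay inside the unstimulated range, and the gene rose (log2 fold change 2.31, SE 0.30, adjusted p = 3.93e-05). Bcl3, an atypical IkB protein, ranged from 0.132 to 0.440 CPM (median 0.272) without LPS and 2.67 to 7.20 CPM (median 6.09) with LPS and rose without overlap (log2 fold change 4.30, SE 0.27, adjusted p = 1.28e-08). Zc3h12a, an RNase that degrades cytokine transcripts, rose (2.19 ± 0.33), as did the subunits Nfkb2 (2.07 ± 0.21), Relb (0.996 ± 0.15), Nfkb1 (0.73 ± 0.10) and Rela (0.51 ± 0.09), the kinase Ikbke (0.83 ± 0.13) and the A20 partner Tnip1 (0.61 ± 0.101). Rel rose (log2 fold change 0.60, SE 0.16, adjusted p = 0.0212), but lost the call without unstimulated replicate 6 or LPS replicate 2 or 5 (adjusted p up to 0.0607). Chuk, which encodes the kinase IKK-alpha, fell slightly (log2 fold change -0.16, SE 0.05, adjusted p = 0.0394), and lost the call in 9 of the 12 fits that left out 1 library, without unstimulated replicate 1, 2, 3 or 4 or LPS replicate 1, 2, 3, 5 or 6 (adjusted p up to 0.104). The groups did not overlap in 7 of the 19 genes, and replicate 4 lay at a median of 0.19 of the way from the unstimulated mean to the mean of the other LPS libraries.

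Of 23 cytokine and cytokine-antagonist genes, 17 passed the count minimum, and 4 of these (Il6, Tnf, Il1rn and Il27) reached 10 counts in no unstimulated library. Among the 17, 13 rose and 1 fell, with a median of 2.87. Il1b, the main secreted form of interleukin 1, ranged from 0.0665 to 0.324 CPM (median 0.173) without LPS and 0.393 to 8.57 CPM (median 6.12) with LPS (log2 fold change 4.82, SE 0.57, adjusted p = 1.41e-05). Tnf gave 4 raw counts over the 6 unstimulated libraries and 663 over the LPS libraries (log2 fold change 7.004, SE 0.62, adjusted p = 5.83e-07; 7.60 without unstimulated replicate 5). Il6 gave 20 and 984 counts (log2 fold change 5.45, SE 0.62, adjusted p = 9.43e-06), and Il1rn, which encodes the interleukin 1 receptor antagonist, 8 and 1482 (log2 fold change 7.26, SE 0.76, adjusted p = 3.74e-06; 8.33 without unstimulated replicate 1). All 6 LPS libraries lay above all unstimulated ones for these 4 genes, although Il1b reached only 0.393 CPM in replicate 4. Csf3, the granulocyte growth factor, ranged from 0.0720 to 0.458 CPM (median 0.265) without LPS and 1.36 to 22.3 CPM (median 19.3) with LPS (log2 fold change 5.89, SE 0.56, adjusted p = 1.44e-06). Csf1, the macrophage growth factor, rose (1.06 ± 0.13), as did Tnfsf10 (TRAIL; 3.70 ± 0.23) and Lif (3.73 ± 0.53). Il12a fell (log2 fold change -0.75, SE 0.19, adjusted p = 0.0144), and its call was lost with age as a factor. Il33, an alarmin, did not pass (log2 fold change 0.11, SE 0.09, adjusted p = 0.532).

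Of 24 chemokine genes, 23 passed the count minimum, 3 of them (Ccl4, Cxcl9 and Cxcl11) that reached 10 counts in no unstimulated library. Among the 23, 16 rose and 2 fell, with a median of 3.58, and without replicate 4 the counts were 17 and 1. Cxcl10, a ligand of CXCR3 on T cells, ranged from 0.127 to 2.13 CPM (median 1.15) without LPS and 34.5 to 260.4 CPM (median 179) with LPS. The lowest LPS library was replicate 4 and the groups did not overlap (log2 fold change 7.28, SE 0.49, adjusted p = 2.23e-08). The other CXCR3 ligands Cxcl11 (7.98 ± 0.58; 8.94 without unstimulated replicate 3) and Cxcl9 (6.61 ± 0.62; 7.46 without unstimulated replicate 1) rose too. Cxcl1, which draws neutrophils, ranged from 0.0904 to 1.11 CPM (median 0.272) without LPS and 3.46 to 47.0 CPM (median 40.2) with LPS (log2 fold change 6.57, SE 0.63, adjusted p = 1.47e-06; 7.20 without unstimulated replicate 1). Ccl2, which draws monocytes, gave 56 raw counts over the unstimulated and 7129 over the LPS libraries (log2 fold change 6.83, SE 0.64, adjusted p = 1.14e-06), and Ccl12, another CCR2 ligand, rose (5.10 ± 0.33). Ccl5 ranged from 0.110 to 0.198 CPM (median 0.129) without LPS and 0.197 to 7.32 CPM (median 4.06) with LPS; its value in replicate 4 lay inside the unstimulated range, and the gene rose (4.85 ± 0.58). Cxcl12, a homeostatic chemokine of vessels, ranged from 53.0 to 66.1 CPM (median 57.04) without LPS and 19.6 to 32.4 CPM (median 21.8) with LPS and fell without overlap (log2 fold change -1.32, SE 0.101, adjusted p = 1.12e-07; -1.44 without replicate 4). The neuronal chemokine Cx3cl1 fell by little (log2 fold change -0.15, SE 0.05, adjusted p = 0.0436) and lost the call in 9 of the 12 fits that left out 1 library, without unstimulated replicate 1, 2, 5 or 6 or LPS replicate 1, 2, 3, 4 or 5 (adjusted p up to 0.103). Cxcl14 did not pass (-0.05 ± 0.04). Ccl17 passed only without replicate 4 (log2 fold change 0.49, SE 0.18, adjusted p = 0.107 with it).

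Among 22 genes of the JAK, STAT, SOCS and IRF families, 12 rose and none fell, with a median of 0.33. Socs3, which blocks cytokine receptor signalling, ranged from 2.24 to 3.63 CPM (median 2.79) without LPS and 10.2 to 41.1 CPM (median 36.0) with LPS (log2 fold change 3.496, SE 0.26, adjusted p = 8.91e-08). Irf7, which amplifies type I interferon, ranged from 1.51 to 3.84 CPM (median 1.70) without LPS and 17.8 to 27.6 CPM (median 24.99) with LPS (log2 fold change 3.56, SE 0.19, adjusted p = 1.80e-09). Irf1 (2.03 ± 0.23), Socs1 (1.24 ± 0.21), Stat5a (0.94 ± 0.15), Stat3 (0.74 ± 0.08) and Irf9 (0.45 ± 0.101) rose.

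All 32 interferon-stimulated antiviral genes rose, with a median of 3.02, and in all 32 the groups did not overlap (10.6% and 5.77% of all genes tested). Oas3 reached 10 counts in no unstimulated library. Rsad2, which encodes the antiviral enzyme viperin, ranged from 1.03 to 3.86 CPM (median 1.67) without LPS and 70.1 to 303 CPM (median 182) with LPS (log2 fold change 6.63, SE 0.35, adjusted p = 1.55e-09). Ifit1, whose promoter holds 2 ISRE matches, ranged from 1.23 to 5.83 CPM (median 2.56) without LPS and 30.8 to 109 CPM (median 66.2) with LPS (log2 fold change 4.63, SE 0.32, adjusted p = 3.75e-08). Mx1, a dynamin-like GTPase that blocks influenza viruses, ranged from 0.233 to 0.468 CPM (median 0.318) without LPS and 5.43 to 29.2 CPM (median 15.2) with LPS (log2 fold change 5.55, SE 0.36, adjusted p = 1.66e-08). Oasl1 (6.45 ± 0.33), Oas3 (4.65 ± 0.52), the nucleic acid sensor Zbp1 (3.67 ± 0.29), Ifi44 (3.98 ± 0.25) and the ubiquitin-like protein Isg15 (3.25 ± 0.21) rose, and the smallest named increases were in the membrane proteins Ifitm1 (1.30 ± 0.15) and Ifitm2 (1.502 ± 0.14).

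Interferon-inducible GTPases, which attack the membranes around intracellular pathogens, rose in all 15 members tested, of 16 listed, with a median of 3.56. The member not tested, Gbp10, had no row of its own. Gbp2 ranged from 1.70 to 12.9 CPM (median 2.63) without LPS and 60.5 to 152 CPM (median 120.2) with LPS (log2 fold change 4.89, SE 0.40, adjusted p = 2.29e-07; 5.61 without unstimulated replicate 1). Its highest unstimulated value, 12.9 CPM, was in replicate 1 and still lay below every LPS library. Iigp1 ranged from 0.759 to 5.90 CPM (median 1.17) without LPS and 35.9 to 89.1 CPM (median 58.9) with LPS (log2 fold change 5.06, SE 0.38, adjusted p = 8.28e-08; 5.77 without unstimulated replicate 1). The row named Gbp5 ranged from 2.01 to 12.3 CPM (median 2.42) without LPS and 63.0 to 163 CPM (median 126) with LPS (log2 fold change 4.98, SE 0.38, adjusted p = 1.28e-07; 5.67 without unstimulated replicate 1); its interval spans Gbp5 and its neighbour Gbp2b, so the counts cannot be divided between them. The row named Gbp6 likewise spans Gbp6 and Gbp10 and rose (4.63 ± 0.38). Gbp7 (2.60 ± 0.21), Gbp11 (2.66 ± 0.34) and Irgm1 (2.58 ± 0.23) rose too.

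MHC class I presentation rose in 17 of 18 members, with a median of 1.15, and the groups did not overlap in 16. Nlrc5, the transactivator of class I genes, ranged from 0.981 to 4.12 CPM (median 1.23) without LPS and 12.7 to 20.6 CPM (median 15.5) with LPS (log2 fold change 3.31, SE 0.27, adjusted p = 2.29e-07). The peptide transporter Tap1 ranged from 1.58 to 4.12 CPM (median 2.05) without LPS and 9.06 to 24.9 CPM (median 18.4) with LPS (log2 fold change 2.998, SE 0.23, adjusted p = 1.28e-07). The heavy chains H2-Q4 (2.92 ± 0.24), H2-Q7 (2.88 ± 0.33), H2-K1 (1.41 ± 0.16) and H2-T23 (0.48 ± 0.09) rose, but these genes are close copies of each other and reads could be split between them. The light chain B2m rose from a high base, from 42.8 to 61.2 CPM (median 46.3) without LPS and 61.4 to 79.1 CPM (median 71.5) with LPS (log2 fold change 0.56, SE 0.08, adjusted p = 8.24e-05). The trimming peptidase Erap1 was the member that did not pass (log2 fold change 0.19, SE 0.08, adjusted p = 0.140); it passed without unstimulated replicate 1 (adjusted p = 0.0404).

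Of 20 acute-phase genes, 11 passed the count minimum, 4 of them (Saa2, Saa3, Serpina3f and Serpina3i) that reached 10 counts in no unstimulated library, and all 11 rose, with a median of 4.19. Lcn2, which captures bacterial siderophores, ranged from 0.380 to 1.09 CPM (median 0.704) without LPS and 29.0 to 104 CPM (median 79.0) with LPS (log2 fold change 6.80, SE 0.32, adjusted p = 7.33e-10). Saa3, an apolipoprotein of inflammation, gave 12 raw counts without LPS and 1754 with it (log2 fold change 6.97, SE 0.58, adjusted p = 2.68e-07; 7.66 without unstimulated replicate 4). The protease inhibitor Serpina3f (7.66 ± 0.26) and its paralog Serpina3g (4.92 ± 0.24) rose, and Serpina3n ranged from 6.10 to 10.8 CPM (median 7.42) without LPS and 12.3 to 39.5 CPM (median 28.5) with LPS (log2 fold change 1.82, SE 0.22, adjusted p = 1.63e-05). The copper-binding ferroxidase Cp also rose (1.94 ± 0.16).

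Complement moved less, with 17 of 18 members past the count minimum, 8 higher, 1 lower and a median of 0.32. C5ar1, the receptor for C5a, ranged from 0.421 to 0.775 CPM (median 0.577) without LPS and 2.24 to 5.19 CPM (median 4.98) with LPS (log2 fold change 2.85, SE 0.21, adjusted p = 6.88e-08). The central component C3 ranged from 0.183 to 0.846 CPM (median 0.483) without LPS and 0.492 to 2.89 CPM (median 1.84) with LPS; its value in replicate 4 lay inside the unstimulated range, and it rose (log2 fold change 1.86, SE 0.40, adjusted p = 0.00444). C3ar1 (0.95 ± 0.13) and C1qb (0.34 ± 0.07) rose. C1ra rose (log2 fold change 0.87, SE 0.24, adjusted p = 0.0267), shares 50.8% of its 50-base sequences with C1rb, so that reads may be split, and lost the call without unstimulated replicate 2 or 6 or LPS replicate 1, 2 or 3 (adjusted p up to 0.0696).

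Most transcripts that mark resting microglia fell: among 20 homeostatic microglial genes, 15 fell and 1 rose, with a median of -0.47, and the groups did not overlap in 10. In bulk tissue, fewer cells of a type and less RNA per cell cannot be told apart, here and for every cell type below. Gpr34, a lysophosphatidylserine receptor, ranged from 6.02 to 8.99 CPM (median 7.56) without LPS and 1.77 to 4.46 CPM (median 2.06) with LPS (log2 fold change -1.65, SE 0.19, adjusted p = 1.30e-05; -1.91 without replicate 4). Cx3cr1, the receptor for the neuronal chemokine Cx3cl1, ranged from 30.3 to 36.1 CPM (median 32.4) without LPS and 9.24 to 19.8 CPM (median 10.8) with LPS (log2 fold change -1.45, SE 0.14, adjusted p = 1.91e-06). P2ry12, the receptor that steers processes to ATP, ranged from 21.2 to 26.0 CPM (median 23.8) without LPS and 7.24 to 16.8 CPM (median 9.61) with LPS (log2 fold change -1.19, SE 0.14, adjusted p = 1.79e-05). In each of these 3 genes the highest LPS value was that of replicate 4 and still lay below the unstimulated range. Tmem119 (-0.84 ± 0.12), P2ry13 (-0.69 ± 0.14), Siglech (-0.55 ± 0.07), Aif1 (-0.43 ± 0.10), Selplg (-0.29 ± 0.07) and the growth factor receptor Csf1r (-0.26 ± 0.04) fell. Trem2, the lipid receptor of microglia, fell (log2 fold change -0.32, SE 0.08, adjusted p = 0.00913), from 6.89 to 9.27 CPM (median 8.18) without LPS and 5.84 to 6.86 CPM (median 6.61) with LPS. Its adaptor Tyrobp was the member that rose (log2 fold change 0.26, SE 0.07, adjusted p = 0.0298), a call lost without unstimulated replicate 1, 2 or 4 or LPS replicate 3, 5 or 6 (adjusted p up to 0.0709).

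Of 20 genes of the disease-associated microglial state, 19 had a matching row and 17 of these passed the count minimum. Among the 17 tested members 1 was higher and none lower, with a median of 0.09. That share of calls is below the 10.6% of all genes. Trem2, Tyrobp and B2m, which were called and are given above, are not on this list. Spp1, which encodes osteopontin, was that member (log2 fold change 0.36, SE 0.08, adjusted p = 0.00871), from 7.10 to 9.06 CPM (median 8.23) without LPS and 9.42 to 12.7 CPM (median 9.93) with LPS. Apoe, the main lipid carrier made in brain, ranged from 677 to 832 CPM (median 759) without LPS and 722 to 799 CPM (median 755) with LPS (log2 fold change -0.01, SE 0.05, adjusted p = 0.924). The lysosomal protein Cd68 did not pass either (-0.10 ± 0.10).

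Reactive astrocyte genes were described by 3 lists that share genes with those above. Of 13 pan-reactive genes, 10 rose (12 without replicate 4), with a median of 1.82. Osmr, the oncostatin M receptor, ranged from 3.07 to 5.79 CPM (median 4.22) without LPS and 17.2 to 34.6 CPM (median 29.0) with LPS (log2 fold change 2.77, SE 0.17, adjusted p = 8.62e-09). Gfap, the astrocyte intermediate filament, ranged from 96.7 to 134 CPM (median 102) without LPS and 141 to 229 CPM (median 191) with LPS (log2 fold change 0.74, SE 0.11, adjusted p = 2.52e-04). Steap4 ranged from 0.325 to 0.763 CPM (median 0.542) without LPS and 2.77 to 23.05 CPM (median 16.5) with LPS (log2 fold change 4.85, SE 0.42, adjusted p = 4.02e-07), and Timp1, an inhibitor of metalloproteinases, rose (2.36 ± 0.29), as did Cd44 (0.59 ± 0.15). Vim did not pass (-0.15 ± 0.06). Of 12 genes of the LPS type (A1), 8 rose and 1 fell, with a median of 0.80; the immunoproteasome subunit Psmb8 (2.27 ± 0.20) and the proteoglycan core Srgn (1.57 ± 0.15) rose, and Fbln5 fell (log2 fold change -0.31, SE 0.09, adjusted p = 0.0321) with the call lost without unstimulated replicate 3, 4 or 6 or LPS replicate 1, 2 or 3 (adjusted p up to 0.0836). Of 12 genes of the ischaemia type (A2), 7 rose and none fell, with a median of 1.14, among them the pentraxin Ptx3 (4.19 ± 0.45), the steroid sulfate transporter Slc10a6 (4.19 ± 0.35), which reached 10 counts in no unstimulated library, and Tgm1 (2.11 ± 0.24). Ptgs2, the inducible cyclooxygenase, ranged from 13.6 to 22.2 CPM (median 15.9) without LPS and 20.1 to 64.4 CPM (median 54.1) with LPS, rose (log2 fold change 1.58, SE 0.20, adjusted p = 4.04e-05), and in replicate 4 lay inside the unstimulated range.

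Endothelial genes moved in both directions. Of 20 endothelial activation genes, 19 passed the count minimum, 11 rose and 2 fell, with a median of 1.29. Icam1, the adhesion molecule for leukocyte integrins, ranged from 1.65 to 3.51 CPM (median 2.02) without LPS and 8.63 to 81.3 CPM (median 58.1) with LPS (log2 fold change 4.604, SE 0.40, adjusted p = 4.80e-07). Vcam1 ranged from 20.9 to 25.9 CPM (median 23.8) without LPS and 40.5 to 81.5 CPM (median 64.5) with LPS (log2 fold change 1.42, SE 0.12, adjusted p = 2.82e-07). The selectins that start leukocyte rolling rose from near 0: Selp gave 24 raw counts without LPS and 3171 with it (log2 fold change 6.86, SE 0.59, adjusted p = 4.02e-07), and Sele rose (5.81 ± 0.59; 6.47 without unstimulated replicate 4). Ch25h, the enzyme of 25-hydroxycholesterol, ranged from 0.231 to 0.578 CPM (median 0.427) without LPS and 3.09 to 12.04 CPM (median 9.53) with LPS (log2 fold change 4.49, SE 0.30, adjusted p = 2.48e-08), and Lrg1 (1.03 ± 0.15) and Upp1 (1.40 ± 0.31) rose. The nitric oxide synthase Nos3 (log2 fold change -1.17, SE 0.103, adjusted p = 5.89e-07) and the clotting factor Vwf (log2 fold change -0.96, SE 0.19, adjusted p = 0.00247) fell, both with no overlap between the groups.

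Among the 24 genes of endothelial identity and of the barrier, 17 fell and 4 rose, with a median of -0.61, and the groups did not overlap in 16. Cldn5, the main tight junction claudin of the blood-brain barrier, ranged from 14.1 to 21.5 CPM (median 16.7) without LPS and 3.43 to 6.81 CPM (median 5.26) with LPS (log2 fold change -1.78, SE 0.15, adjusted p = 2.53e-07). Replicate 4, at 5.05 CPM, was in the middle of the LPS libraries for this gene. Slco1a4, an organic anion carrier of brain vessels, ranged from 50.9 to 56.99 CPM (median 53.1) without LPS and 9.78 to 26.1 CPM (median 12.01) with LPS (log2 fold change -1.88, SE 0.19, adjusted p = 1.99e-06; -2.13 without replicate 4). Tek, the angiopoietin receptor, ranged from 11.003 to 13.9 CPM (median 12.5) without LPS and 3.67 to 5.96 CPM (median 3.92) with LPS (log2 fold change -1.56, SE 0.11, adjusted p = 3.13e-08). Hspa12b (-2.05 ± 0.15), Ocln (-1.17 ± 0.12) and the efflux pump Abcb1a (-0.97 ± 0.09) fell. The members that rose were the adherens junction cadherin Cdh5 (log2 fold change 1.13, SE 0.15, adjusted p = 3.95e-05), the guidance receptor Robo4 (log2 fold change 1.35, SE 0.16, adjusted p = 1.90e-05), Ly6a (log2 fold change 1.05, SE 0.11, adjusted p = 4.88e-06) and Esam (log2 fold change 0.20, SE 0.06, adjusted p = 0.0301), the last a call lost without unstimulated replicate 1, 5 or 6 or LPS replicate 1, 3, 5 or 6 (adjusted p up to 0.0711). The barrier list therefore held genes called in both directions.

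Among 16 endothelial transcription factors, 6 fell and 2 rose, with a median of -0.32. Sox17 ranged from 4.88 to 6.597 CPM (median 5.602) without LPS and 0.552 to 1.38 CPM (median 0.800) with LPS (log2 fold change -2.71, SE 0.17, adjusted p = 9.39e-09), and its relative Sox18 from 4.59 to 5.41 CPM (median 4.83) without LPS and 0.205 to 1.44 CPM (median 0.762) with LPS (log2 fold change -2.65, SE 0.24, adjusted p = 6.55e-07). Both are SoxF factors that set vessel identity, and in neither did the groups overlap. The third SoxF gene, Sox7, rose (log2 fold change 0.99, SE 0.20, adjusted p = 0.00280). The shear-responsive Klf4 (-1.502 ± 0.17) and the ETS factor Fli1 (-1.49996 ± 0.16) fell, and the ETS factor Erg rose (0.54 ± 0.10). Foxf2 did not pass (log2 fold change -0.53, SE 0.17, adjusted p = 0.0535), but did without LPS replicate 4 and without unstimulated replicate 5. It also passed with age as a factor (-0.71, adjusted p = 0.0291), a fit whose LPS effect draws on neither of those libraries.

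Immediate early genes, which follow neuronal activity, fell in 11 of 18 members and rose in 1, with a median of -0.49. Egr1 ranged from 156 to 352 CPM (median 239) without LPS and 85.6 to 131 CPM (median 108) with LPS (log2 fold change -1.18, SE 0.16, adjusted p = 4.60e-05), and Arc, a synaptic protein, from 121 to 330.4 CPM (median 232) without LPS and 62.8 to 133 CPM (median 69.2) with LPS (log2 fold change -1.46, SE 0.21, adjusted p = 1.26e-04). Egr2 (-1.72 ± 0.24), Nr4a1 (-1.13 ± 0.17) and Npas4 (-1.18 ± 0.23) fell, and Jun rose (0.43 ± 0.08). The list was highest in unstimulated replicate 1, at a mean of 5.67 log2 CPM. Unstimulated replicate 5 was at 4.65, inside the LPS range of 4.50 to 4.89, so the groups overlapped in the level of the list. The groups did not overlap in 5 of the 18 genes, beside 5.77% of all genes tested.

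Of 17 glucocorticoid-responsive genes, 14 rose and 1 fell, with a median of 0.57. Cebpd, a transcription factor of the acute-phase response, ranged from 3.14 to 5.49 CPM (median 3.87) without LPS and 9.83 to 28.4 CPM (median 25.4) with LPS (log2 fold change 2.53, SE 0.22, adjusted p = 3.79e-07). Fkbp5, the chaperone that dampens the glucocorticoid receptor, ranged from 37.0 to 84.1 CPM (median 60.5) without LPS and 91.8 to 122 CPM (median 111) with LPS (log2 fold change 0.83, SE 0.14, adjusted p = 7.25e-04). The metallothionein Mt2 (1.41 ± 0.12), Map3k6 (1.39 ± 0.13), the cell cycle inhibitor Cdkn1a (1.30 ± 0.1004), Errfi1 (1.17 ± 0.12) and Hif3a (0.57 ± 0.13) rose. Tsc22d3, another target of the receptor, did not pass (log2 fold change 0.16, SE 0.07, adjusted p = 0.184). Among 17 core clock genes, 3 fell and none rose, a share of 17.6% beside the 10.6% of all genes, and these were Per2 (log2 fold change -0.81, SE 0.09, adjusted p = 7.68e-06), Cry1 (-0.37 ± 0.07) and Per1 (-0.44 ± 0.06), which the glucocorticoid list also holds.

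Lipid and trafficking genes, the classes in which Abca7 itself is placed, were called in 22.2% of lipid efflux, 22.2% of cholesterol and 20.8% of trafficking genes, and in 4.55% of lysosomal genes, beside the 10.6% of all genes. Of 18 genes of lipid efflux and oxysterols, 2 rose and 2 fell, with a median of 0.003. Abca1, a cholesterol exporter of the same subfamily as Abca7, rose (log2 fold change 0.32, SE 0.06, adjusted p = 0.00126), from 43.5 to 53.98 CPM (median 49.8) without LPS and 56.8 to 69.7 CPM (median 59.0) with LPS. Abca9 fell (log2 fold change -0.80, SE 0.12, adjusted p = 2.22e-04), as did Mylip, a ubiquitin ligase (-0.24 ± 0.06). Of 18 genes of cholesterol synthesis and uptake, 4 rose, among them Insig1 (0.23 ± 0.04), Dhcr7 (0.21 ± 0.05) and Fdft1 (0.18 ± 0.05). Fdft1 lost the call without unstimulated replicate 1, 2 or 4 or LPS replicate 1, 5 or 6 (adjusted p up to 0.0748).

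Of 24 genes of endocytosis and membrane trafficking, 4 rose and 1 fell. Rab20, a GTPase of phagosomes, ranged from 0.234 to 0.452 CPM (median 0.382) without LPS and 0.570 to 3.21 CPM (median 2.11) with LPS (log2 fold change 2.57, SE 0.32, adjusted p = 2.66e-05), while Rab31 (0.36 ± 0.04), Snx1 (0.23 ± 0.05) and the Alzheimer's disease risk gene Picalm (0.18 ± 0.03) rose by less. The caveolar protein Cav1 fell (log2 fold change -0.85, SE 0.08, adjusted p = 2.06e-06). Of 22 lysosomal genes, 1 was called, with a list median of -0.02.

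Markers of the main cell types of cortex were present. The share called was 16.7% of astrocyte, 20% of mural cell and 12.5% of striatal markers, beside the 10.6% of all genes. It was 0% in the neuronal, oligodendrocyte, thalamic and hippocampal lists. In lists this short such shares rest on very few genes. None of 10 neuronal and 10 oligodendrocyte markers was called, and summed neuronal markers ran from 5452 to 6574 CPM without LPS and from 5533 to 6627 CPM with it. Among 12 astrocyte markers 1 was called in each direction; Aldh1l1 rose (log2 fold change 0.18, SE 0.05, adjusted p = 0.0242), a call lost without unstimulated replicate 4 or LPS replicate 2, 5 or 6 (adjusted p up to 0.0629). Of 10 mural cell markers, Acta2 (log2 fold change -0.36, SE 0.105, adjusted p = 0.0379) and Atp13a5 (log2 fold change -0.29, SE 0.08, adjusted p = 0.0313) fell; Acta2 lost the call without unstimulated replicate 3, 4 or 6 or LPS replicate 1, 2, 3, 4 or 6 (adjusted p up to 0.0907), and Atp13a5 without unstimulated replicate 2, 4 or 6 or LPS replicate 1, 2 or 3 (adjusted p up to 0.0824). Of 8 striatal markers Drd1 fell (log2 fold change -0.25, SE 0.06, adjusted p = 0.0149), a call lost with age as a factor (adjusted p = 0.108). None of 8 thalamic or 8 hippocampal markers was called. Summed thalamic markers nevertheless ranged from 136 to 285 CPM without LPS and from 161 to 354 CPM with it, a wide range within both groups.

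Meningeal fibroblast markers fell in 6 of 10 members, with a median of -0.55, and their sum ran from 128 to 166 CPM without LPS and from 77.7 to 147 CPM with it. The organic anion carrier Slc22a6 ranged from 4.67 to 6.06 CPM (median 5.65) without LPS and 1.11 to 4.29 CPM (median 2.49) with LPS (log2 fold change -1.09, SE 0.21, adjusted p = 0.00222), the GABA carrier Slc6a13 fell (-0.95 ± 0.17), and Fmod (-0.75 ± 0.12) and Col1a1 (-0.64 ± 0.16) fell. The 10 choroid plexus markers were not called; their sum ran from 59.2 to 536 CPM without LPS and from 40.4 to 463 CPM with it, and Ttr was at log2 fold change -0.34, SE 0.498, adjusted p = 0.755. The part of the amount of meninges in each dissection was not tested.

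Markers of blood cells were low. Of 10 neutrophil markers 3 passed the count minimum and S100a9 (log2 fold change 2.15, SE 0.41, adjusted p = 0.00171) and S100a8 (log2 fold change 1.86, SE 0.52, adjusted p = 0.0301) rose, while Elane had 0 counts in all 12 libraries and no untested marker passed 15 counts in any library. S100a8 gave 32 raw counts without LPS and 129 with it, had a fold change of 2.58 on the log2 scale without unstimulated replicate 4, and lost the call without unstimulated replicate 1, 2 or 6 or LPS replicate 1, 2 or 3 (adjusted p up to 0.0715). The summed neutrophil list was 0.489 to 1.13 CPM without LPS and 0.923 to 2.30 CPM with it. Of 8 monocyte markers 5 passed, 2 of them (Plac8 and Ms4a4c) that reached 10 counts in no unstimulated library; Plac8 gave 8 raw counts without LPS and 140 with it (log2 fold change 3.93, SE 0.55, adjusted p = 8.81e-05; 4.59 without unstimulated replicate 3), Ms4a4c 9 and 151 (log2 fold change 3.83, SE 0.57, adjusted p = 1.76e-04; 4.62 without unstimulated replicate 6), and F13a1 fell (-0.98 ± 0.23). The summed level of the monocyte markers was 30.3 to 36.9 CPM without LPS and 33.8 to 37.8 CPM with it. That sum includes Vcan, which is also on the oligodendrocyte precursor list. The mean log2 CPM of the 5 that passed, Plac8 and Ms4a4c among them, ran from -0.34 to 0.05 without LPS. With LPS it ran from 0.68 to 1.24. Of 10 lymphocyte markers 3 passed and none was called; Cd79a was called only without replicate 4 (log2 fold change -0.98, SE 0.35, adjusted p = 0.0946 with it). Haemoglobin transcripts gave 1 call, Hbb-bt (log2 fold change -0.74, SE 0.22, adjusted p = 0.0425), lost without unstimulated replicate 2, 4, 5 or 6 or LPS replicate 1, 2, 3, 4 or 5 (adjusted p up to 0.102), and Hbb-bs did not pass (-0.56 ± 0.19) except without LPS replicate 4 or unstimulated replicate 3, or with the Ttr level in the fit.

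Replicate 4 of the LPS group mostly moved the same way as the other 5 LPS libraries, by a share that ranged widely over genes. Its position was measured as the distance from the unstimulated mean divided by the distance of the mean of the other 5 LPS libraries, on the log2 CPM scale, so that 0 is unstimulated and 1 is the other LPS libraries. The median over genes called higher by over 2-fold without it was 0.615, and over those called lower 0.588. Of the 476 genes called higher by over 2-fold without it, 77 (16.2%) lay under 0.25 and 167 (35.1%) over 0.75.

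By list, among those with at least 6 genes to measure it on, the lowest medians were in complement (0.14), NF-kB genes (0.19) and homeostatic microglia (0.35), and the highest in GTPases (0.81) and antiviral genes (0.79). Within NF-kB genes, Zc3h12a stood at -0.05, Tnip1 at -0.03, Rela at 0.08, Tnfaip3 at 0.09 and Nfkbia at 0.40, with Rel lowest (-0.33) and Ikbke highest (0.72). Within antiviral genes, Zbp1 stood at 1.002, Ifi44 at 1.001, Isg15 at 0.85 and Ifitm2 lowest at 0.54. Cytokines ran from 0.21 for Il1b to 0.93 for Tnfsf10, and chemokines from -0.22 for Ccl17 to 0.71 for Ccl12. Stat5a was lowest of the JAK and STAT genes, at 0.24. In the other lists, positions ran from 0.36 (Gbp11) to 0.87 (Gbp7) in GTPases, from 0.19 (H2-T23) to 0.93 (Nlrc5) in MHC class I, and from 0.36 (Serpina3n) to 0.95 (Serpina3g) in acute-phase genes. Endothelial genes ran from 0.02 (Upp1) to 0.98 (Vwf) in activation, and from 0.15 (Cdh5) to 1.29 (Ly6a) in identity and barrier. Cldn5 stood at 0.96.

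Leaving replicate 4 out changed the count of calls in 10 of the 40 lists. Of the 177 named genes that were called, 169 kept the call without it, all 177 kept their direction, and the fold change of a called gene moved by at most 0.26 on the log2 scale. Chemokines then had 17 members higher and 1 lower. JAK, STAT, SOCS and IRF genes had 13 members higher, complement 9, pan-reactive astrocyte genes 12, endothelial activation 12 and glucocorticoid-responsive genes 13, endothelial transcription factors had 7 lower, mural cell markers had 1 higher and 1 lower, and oligodendrocyte precursor and lymphocyte markers had 1 lower each. List medians without it were 3.04 for cytokines, 3.80 for chemokines, 0.83 for NF-kB genes, 3.11 for antiviral genes, 3.65 for GTPases, 4.39 for acute-phase genes, -0.49 for homeostatic microglia and -0.66 for endothelial identity.

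**Figure D4:**
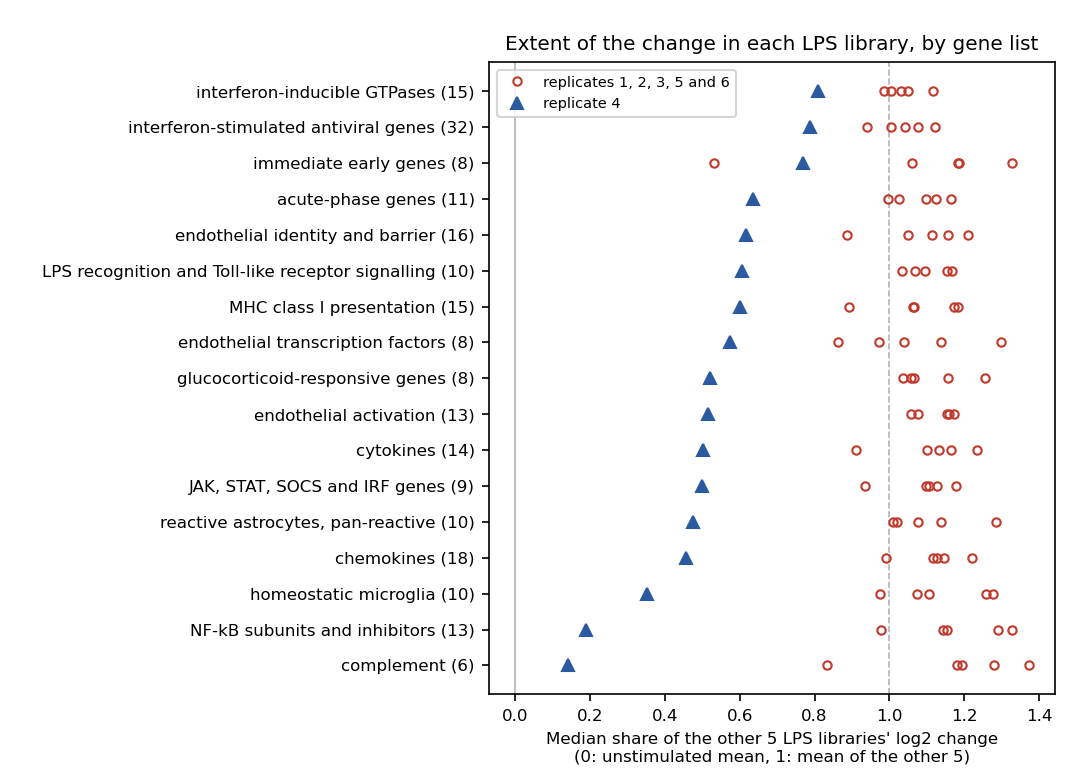
Median position of each LPS library on the scale from the unstimulated mean (0) to the mean of the other 5 LPS libraries (1), by gene list, with the number of genes in parentheses. Replicate 4 lies at 0.19 in NF-kB genes and at 0.81 in GTPases, while the other libraries lie between 0.53 and 1.37 over the lists shown. The scale of each of those libraries includes replicate 4.

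The promoter letters did not enter the choice of replicate 4 and were set beside these positions. Among the 476 genes higher by over 2-fold without replicate 4, the 45 with an ISRE match only had a median position of 0.832 (quartiles 0.664 and 0.898). The 63 with an NF-kB match only had 0.484 (quartiles 0.290 and 0.704). The 12 with both had 0.815, the 198 with neither 0.608, and the 158 genes that had no RefSeq window 0.551. The quartile ranges of the ISRE and the NF-kB groups overlap. The same groups in replicate 6, the next lowest LPS library, had medians of 0.947 and 0.966. The scale of replicate 6 includes replicate 4 among its other LPS libraries. Its medians are therefore not on the scale of replicate 4, and cannot show whether the order of the groups is particular to replicate 4. Of the genes shown above, Ifit1 (ISRE only) stood at 0.75, Gbp5 (both) at 0.80, Cxcl10 (both) at 0.69, Cxcl1 (NF-kB only) at 0.51 and Nfkbia (NF-kB only) at 0.40. Genes are not independent replicates, and these values describe 1 library.

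Gadd45b (log2 fold change 0.46, SE 0.14, adjusted p = 0.0507 with it, 0.58 without), Tnfrsf9 (1.02 without), Pxn (0.30), Crybg3 (-0.33), Ccdc141 (-0.44) and Pik3c2b (-0.30) were called without it and not in the fit of all 12 libraries, and in all 6 its position was below 0. With replicate 4 present, all 6 were called by DESeq2, 4 in the 24-library fit, 1 with RLE factors and 0 with the Ttr level in the fit. Age as a factor also gave all 6. Only LPS replicate 3 shared the age of replicate 4, so the LPS effect of that fit draws on neither. Gadd45b and Ccdc141 were also called without unstimulated replicate 1, and Pxn without unstimulated replicate 6. Ppp1r21 (-0.12), Mef2d (-0.12), Apbb2 (0.13), Trim14 (0.79) and Impad1 (0.14) were called with it and not without it, changed by under 1 on the log2 scale, and in all 5 its position was above 1. Each of those 5 lost the call without other libraries too, in 3 to 7 of the 12 fits that left out 1 library, with adjusted p up to 0.0714 (Impad1). The 6 and the 5 genes were chosen by the effect of LPS replicate 4 on the call. That choice favours the positions given, so the positions are no separate result.

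Unstimulated replicate 1, from the oldest animal (58 days), stood above its group in interferon genes. The GTPase list was at 2.67 log2 CPM in it and at 0.08 to 0.79 in the other 5, below the lowest LPS library at 3.92. Antiviral genes were at 1.49 against 0.46 to 0.88, and MHC class I genes at 3.17 against 2.33 to 2.61. Leaving it out gave 1991 called genes, of which 1878 were shared with the full set. Leaving out both it and LPS replicate 4 gave 2245, of which 1935 were shared.

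Age differed between the groups and could be held level only in part. Among animals of 55 days, 3 unstimulated and 2 given LPS, the NF-kB list differed by 1.09 log2 CPM, antiviral genes by 3.37, GTPases by 4.39, homeostatic microglia by -0.53 and endothelial identity by -0.51. At 56 days, with 1 unstimulated and 2 LPS libraries, these were 1.16, 3.27, 4.21, -0.65 and -0.59. With age as a factor 2055 genes were called, 1603 of them shared with the fit without it. Every other age occurred in 1 group only, so the LPS effect of that fit rests on the libraries of 55 and 56 days.

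The comparison with the control label used all 24 libraries in 1 fit, in which the libraries labelled Abca7 gave 2522 called genes and the control libraries 3714 (17.6%). Both labels called 2081 genes, which is 82.5% of the calls under Abca7 and 56.0% of those under control, and all 2081 had the same sign. A gene called under 1 label only is not shown to differ. The difference itself, LPS effect under Abca7 minus LPS effect under control, was called in 0 genes (0%) by edgeR, with 716 at an unadjusted p under 0.05, 3.39% of genes, and a smallest adjusted p of 0.99998. DESeq2 also called 0, with 698 at an unadjusted p under 0.05. Without replicate 4, edgeR called 0, with 723 at an unadjusted p under 0.05.

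The 6 genes with the smallest unadjusted p for that difference were Dlec1 (-0.48 on the log2 scale), Sulf1 (-0.39), Abca4 (-0.87), Wfdc2 (-2.55), Zfp710 (0.24) and Fendrr (1.03), and none passed after adjustment. Several inflammatory lists had differences below 0, a smaller log2 change under Abca7, in most members, by an amount that moved with 2 libraries. With all 24 libraries the counts below 0 were 29 of 32 antiviral genes (median -0.24), 14 of 15 GTPases (-0.63), 18 of 18 MHC class I genes (-0.25), 10 of 11 acute-phase genes (-0.68), 16 of 23 chemokines (-0.47) and 13 of 19 NF-kB genes (-0.11). Over all genes tested the count was 10501 of 21133, with a median of 0.001. Without LPS replicate 4 the counts in the same order were 26 (-0.17), 14 (-0.47), 17 (-0.18), 10 (-0.57), 16 (-0.28) and 10 (-0.03). Without unstimulated Abca7 replicate 1, the library high in interferon genes, they were 23 (-0.08), 11 (-0.14), 17 (-0.12), 10 (-0.62), 16 (-0.41) and 12 (-0.1043). The sign was not particular to inflammatory lists. With all 24 libraries, 12 of 12 astrocyte markers (median -0.07) and 8 of 8 oligodendrocyte precursor markers (-0.12) were below 0. So were 16 of 17 disease-associated microglial genes (-0.07) and 15 of 17 glucocorticoid-responsive genes (-0.12). Only 2 of 10 neuronal markers (0.03) and 3 of 18 cholesterol genes (0.05) were. Among single genes, Lcn2 differed by -1.57, Nlrc5 by -0.98, Irf7 by -0.54, Cxcl10 by -1.43 and Csf3 by -2.05, and none passed after adjustment. Choroid plexus markers had 10 of 10 below 0 and a median of -1.84; Ttr gave 278 to 982 counts in control unstimulated libraries apart from replicate 1, at 15077, and 8917 to 26095 in control LPS libraries. Without that control library the difference was called in 7 genes, all lower under Abca7: Ttr (-4.97), Slc4a5 (-4.12), Tmem72 (-4.07), F5 (-3.41), Folr1 (-2.85), Kl (-2.43) and Mfrp (-0.998), with 921 at an unadjusted p under 0.05. Ttr, Slc4a5, Folr1 and Kl are on the choroid plexus list, and the part of dissection in these values was not tested.

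**Figure D5:**
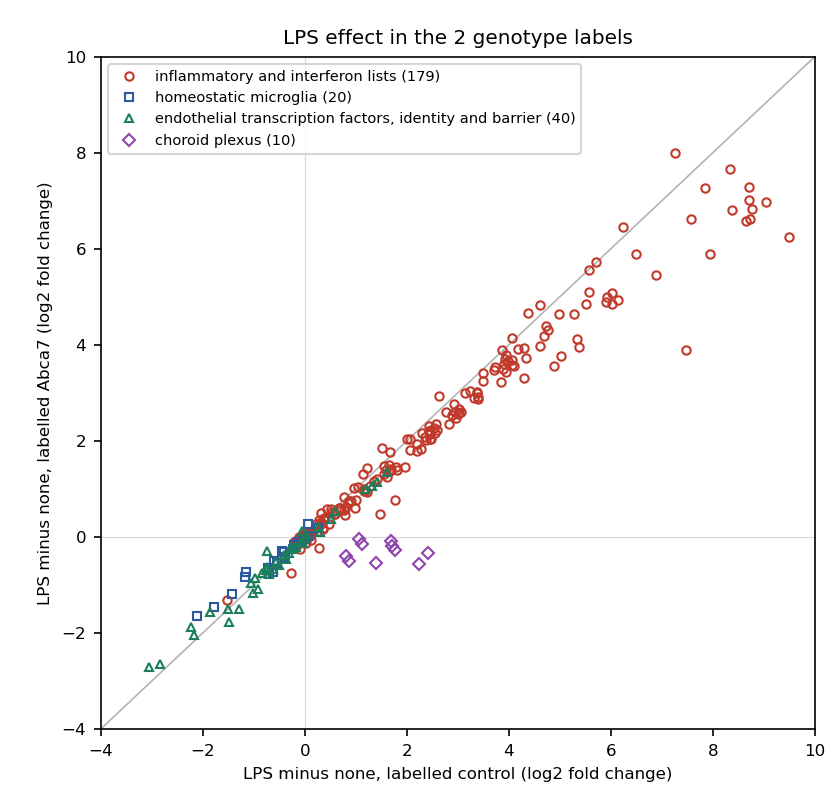
Log2 fold change with LPS in libraries labelled control (x axis) and labelled Abca7 (y axis), from the fit of all 24 libraries, for gene lists named in the legend with their number of genes; the line marks equal change. With all libraries most interferon and acute-phase genes lie under the line, and for no gene was the difference called.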

How the data were processed

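Total RNA of cortex was sequenced on an Illumina HiSeq 4000 and read counts per gene were made by the authors with MAP-RSeq 2.1.1 and STAR 2.5.2b against mm10, per the labels and the submitters' processing notes. The deposited values are raw whole-number counts, and the annotation release and strand setting were not given in the sources used here. No row without a gene name was present, and no per-sample column was left unused (0).

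Genes with at least 10 counts in 6 of the 12 libraries were tested with edgeR 4.0.16 (R 4.3.3; TMM factors, glmQLFit and glmQLFTest, 2-sided), LPS against none, and p-values were adjusted by Benjamini-Hochberg over all 21133 genes at 0.05. The 24-library fit gave the control effect and the difference between labels. CPM values were scaled by TMM, with no prior count, except that summed markers and the Abca7 comparison with control libraries used the raw library total. List levels are means of log2 CPM with a prior count of 2. SE was taken as the size of the log2 fold change over the root of its F value. Alternatives were DESeq2 1.42.0, RLE factors, no filter, filterByExpr, age, Ttr level, surrogate variables (sva 3.50.0), 24 libraries, each library left out, and, chosen after seeing the data, LPS replicate 4 and unstimulated replicate 1 out together. The test was checked on simulated counts.

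Replicates differed by more than sampling noise in every pair (chi-square per gene of 3.63 to 17.0). No label says outright that the libraries of a group come from separate animals, and p-values then measure only the spread between these libraries, which may be technical.

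Genes were named by rule: the 12 largest called increases and decreases with no overlap and a mean log2 CPM of at least 1, per list up to 4 largest called members, all members called against the list's direction, up to 2 not called, and the extreme positions of replicate 4, 8 genes whatever their values (Abca7, Cd14, Tlr4, Tnf, Il1b, Il6, Apoe and Trem2), the 6 smallest p for the difference between labels, and 6 genes each called only with or without replicate 4. Some genes that the rule selects are not reported here. Further list members were named after their values were seen, among them Nfkbia, Cxcl1, Isg15, Gfap, Vcam1, Abcb1a and Fkbp5. Members and lists were chosen with earlier results of these data known.

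Exons of 51 of the 202 named genes overlap another gene in GENCODE M21, and without a strand setting their reads cannot be told apart: Abcb1a, Aldh1l1, Bcl3, Cdkn1a, Cebpd, Ch25h, Cp, Crybg3, Csf1r, Cx3cr1, Cxcl10, Cxcl11, Dlec1, Erap1, F13a1, Fdft1, Foxf2, Gbp2, the Gbp6 row, Gbp7, H2-Q4, Icam1, Ifitm2, Ikbke, Il1b, Irak3, Irf1, Irf7, Irf9, Jun, Mef2d, Ms4a4c, Mt2, Myd88, Nfkb2, Nlrc5, Nos3, Oasl1, P2ry12, Psmb8, Rab20, Selp, Sox17, Spp1, Stat3, Stat5a, Tap1, Tgm1, Trim14, Vcam1 and Zfp710. Over 20% of 50-base sequences are shared with another gene in C1ra, the Gbp6 row, H2-Q4, H2-Q7, Hbb-bs, Hbb-bt and Ifitm2.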

Additional observations from a re-analysis of the deposited data

Results flagged for a closer look

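Within each group of 6 libraries, the highest and lowest library of every list and of 32 genes was compared with the rest by Dixon's gap, which by chance marks about 1 in 20 groups. LPS replicate 4 was chosen beforehand as a weak responder, so a gap of its own is no test and is not counted. Apart from it, 3 of 40 lists stood out in the unstimulated group and 2 in the LPS group, and of 32 genes 3 and 0. Replicate 4 stayed in the LPS group when the gaps were taken. Where its own gap was marked, in 10 lists and 11 genes, no other LPS library could be. The LPS counts therefore cannot be set against 1 in 20 or against the unstimulated group. The lists share genes, so these marks are not independent.

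Unstimulated replicate 1 stood apart on the high side in GTPases (2.67 log2 CPM) and MHC class I genes (3.17), and in Iigp1 (2.57), Gbp5 (3.62) and Gbp2 (3.69). No other animal was 58 days old, so age and library cannot be told apart here, and its share of counts from the ribosomal repeat gene was 18.7%, whose part was not tested. The other flags were 1 library each: unstimulated replicate 6 in membrane trafficking (6.24, low), LPS replicate 5 in oligodendrocyte precursor markers (4.59, low) and LPS replicate 6 in choroid plexus markers (0.43, low).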

How the results depend on the processing

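The number of genes called stayed within 1.5 times the 2235 reported under every setting run: 1744 to 2454 when 1 library was left out, 2762 with DESeq2, 2249 with RLE factors, 2203 with no filter, 2235 with filterByExpr, 2522 with 24 libraries in the fit, 2055 with age as a factor, 2531 with Ttr level and 2761 with surrogate variables. Of 177 named genes that were called, 159 kept the call in all 12 fits that left out 1 library. With age as a factor 19 lost it: Acta2, Aif1, Apbb2, Atp13a5, C1ra, Cx3cl1, Drd1, Esam, F13a1, Fbln5, Fendrr, Hbb-bt, Il12a, Impad1, Mef2d, Ppp1r21, S100a8, Snx1 and Tyrobp; the cause was not tested. Over all named genes and settings 3444 values kept direction and side of the threshold, 47 passed it anew, 138 no longer passed and 7 changed sign, all in 2 genes near 0: Apoe, at -0.01 with all libraries, ran from -0.0452 to 0.0154 when 1 library was left out (0.0017 without LPS replicate 4) and was 0.0060 with Ttr level, and Sulf1, at 0.02, ran from -0.0214 to 0.0587 when 1 library was left out. The count of genes that differed between labels went from 0 to 7 without control unstimulated replicate 1. No paired analysis was possible because the titles carry no shared replicate numbers. Depth limited the genes near 0 counts without LPS (Tnf, Il1rn, Saa3, Selp, Cxcl9 and Cxcl11), whose fold changes depend on the prior count. Age was only partly balanced between the groups, and the fit with age as a factor drew its LPS effect only from libraries of ages found in each group.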
